A study of Mus musculus with 2 samples.

Results

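Clusters of Brg1/Brm islands that lie away from gene ends were examined in mouse medulloblastoma. Brg1, encoded by Smarca4, and its paralogue Brm, encoded by Smarca2, are the alternative ATPases of the BAF (SWI/SNF) complex, which slides and evicts nucleosomes at promoters and enhancers. Several regulatory elements in a row, spread over a long stretch of DNA, are known from many cell types beside genes that set cell identity. In the cerebellum the granule neuron progenitor, which divides in response to Sonic hedgehog, is the cell from which this type of tumour arises.

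The single ChIP library came from dissociated cells of primary medulloblastoma in CAG-CreER, Rosa26-SmoM2 mice, in which an activated Smoothened allele switches on the Hedgehog pathway. The tumours formed spontaneously, and the CAG promoter that drives CreER is active in most cell types. The antibody, J1, recognises Brg1 and Brm, so an island can hold either. There was 1 ChIP library and 1 input library, both of the same genotype, and the input is not analysed here. The sources used here give neither the age nor the number of the animals.

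The members were chosen by the measured positions and widths of the islands. Of 5727 islands (regions of enriched reads), 3367 were distal, with no part within 5 kb of an end of any of 21631 RefSeq protein-coding genes (mm10). Distal islands were chained where the gap to the next distal island was 20 kb or less, and chains of 3 or more were kept. This gave 315 islands in 84 clusters, which is 9.36% of distal islands (exact Clopper-Pearson 95% interval 8.39 to 10.4) and 5.5% of all islands. With 1 library there was no spread between animals, so no test was made and every comparison below is a description. All islands come from the same list, and intervals cover counting error only.

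Most clusters were short. Of the 84, 50 held 3 islands, 18 held 4, 9 held 5, 4 held 6, 2 held 7 and 1 held 10. The distal islands left out were 2432 single ones and 620 in 310 chains of 2. The largest gap that was joined was 20 kb and the smallest that was not was 20.2 kb, with 16 gaps in the last kilobase below the limit and 9 in the first above it. The member nearest to a gene end lay 5045 bp from it, and the excluded island farthest from one lay 4994 bp from it. Members lay a median of 41.8 kb from the nearest gene end (interquartile range 21.3 to 72.3 kb).

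**Figure D1:**
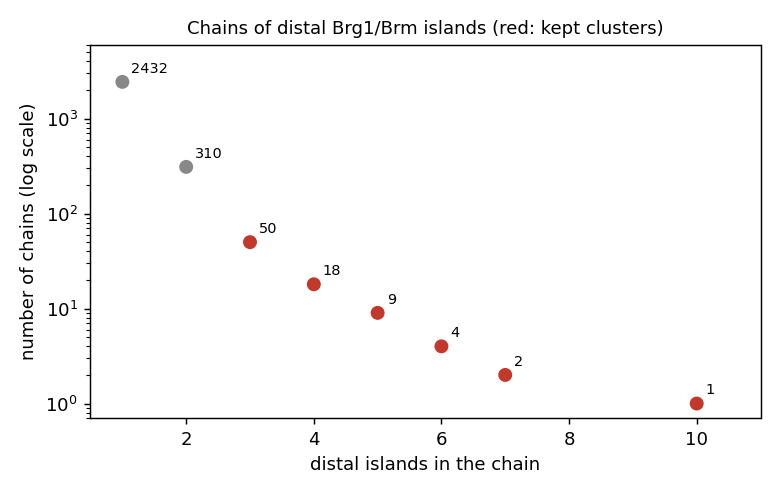
Number of chains of distal islands (log scale) by the number of islands in the chain. Red points are the 84 clusters kept, from 50 chains of 3 to 1 chain of 10; grey points are the 2432 single islands and 310 pairs.

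The loci of miR-9 lay in clusters. miR-9 is a brain-enriched microRNA that targets progenitor regulators such as Hes1 and is made from 3 hairpins, Mir9-1, Mir9-2 and Mir9-3, on different chromosomes. Each of the 3 lay within the span of a cluster. The miR-9 genes were singled out after their positions were seen. Of 1228 annotated microRNA genes, 12 (0.977%) lay within a cluster, among them the miR-9 hairpins and Gm25641 and Gm51268, which carry miR-9b arms on the opposite strand of Mir9-1 and Mir9-2. The others were Mir3093 beside Mir9-1, Gm51285 in the Mir9-3 cluster, Mir3089, Mir5129 in Zeb2, Mir6921, Mir6922 and Mir7687 in Gse1. The 12 genes lay in 7 clusters, so they are not separate loci. The count of 12 was 3 with a joining gap of 10 kb, 7 for chains of 4 or more, 6 with islands of median read count or more and 2 away from the ends of all annotated genes. The mature sequences (RefSeq, GRCm38.p6) show why the loci are read together: each arm is identical in all 3 hairpins. The seed, bases 2 to 8, is in capitals, and let-7b and let-7c, whose genes lay 15.95 and 15.2 kb beyond the longest cluster, are shown beside them.
miR-9-5p: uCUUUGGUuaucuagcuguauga
miR-9-3p: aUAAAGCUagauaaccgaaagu
miR-9b-5p (Gm25641): uUCGGUUAucuagcuuuauga
miR-9b-3p (Gm25641 and Gm51268): aUACAGCUagauaaccaaaga
let-7b-5p: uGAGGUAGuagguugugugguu
let-7c-5p: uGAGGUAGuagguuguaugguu

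The hairpins differ outside the mature arms. They are shown with the mature arms in capitals. Mir9-1 is at chr3:88215598-88215686, Mir9-2 at chr13:83738814-83738885 and Mir9-3 at chr7:79505264-79505353, each on the + strand of mm10.
Mir9-1: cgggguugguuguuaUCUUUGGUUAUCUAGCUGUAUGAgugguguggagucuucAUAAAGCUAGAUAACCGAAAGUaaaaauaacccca
Mir9-2: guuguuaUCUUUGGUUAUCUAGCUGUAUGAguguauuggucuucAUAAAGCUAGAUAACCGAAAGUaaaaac
Mir9-3: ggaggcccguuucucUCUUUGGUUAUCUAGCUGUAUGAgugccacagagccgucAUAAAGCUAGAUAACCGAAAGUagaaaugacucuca

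The Mir9-1 cluster held islands of 97, 64 and 86 reads, and the island of 64 reads (exact Poisson 95% interval 49.3 to 81.7) overlapped the hairpin itself. The Mir9-2 cluster held 6 islands, of 88, 69, 68, 110, 72 and 97 reads, and the hairpin lay in a gap, 1.11 kb from the island of 72 reads. The Mir9-3 cluster held 4 islands, of 73, 106, 132 and 93 reads, with the hairpin 3.15 kb beyond the island of 73 reads. Clustered islands lay on both sides of each hairpin, which follows from its place within the span of a cluster. At Mir9-3 the counting interval of the island of 132 reads (110 to 157) lay above that of the island of 73 (57.2 to 91.8), while the intervals of the 3 Mir9-1 islands overlapped. The clusters lay between Mef2d and Rhbg (28.4 and 20.2 kb away) for Mir9-1, Mef2c and Tmem161b (46.7 and 475 kb) for Mir9-2, and Polg and Rhcg (31.4 and 56.6 kb) for Mir9-3. Mef2c and Mef2d encode MADS-box factors of maturing neurons. Mef2d had islands of 59 and 85 reads near its ends and Mef2c had none. With a joining gap of 10 kb, 1 of the 3 hairpins lay within a cluster, and with ends of all annotated genes counted, lncRNA and microRNA genes included, none did.

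**Figure D2:**
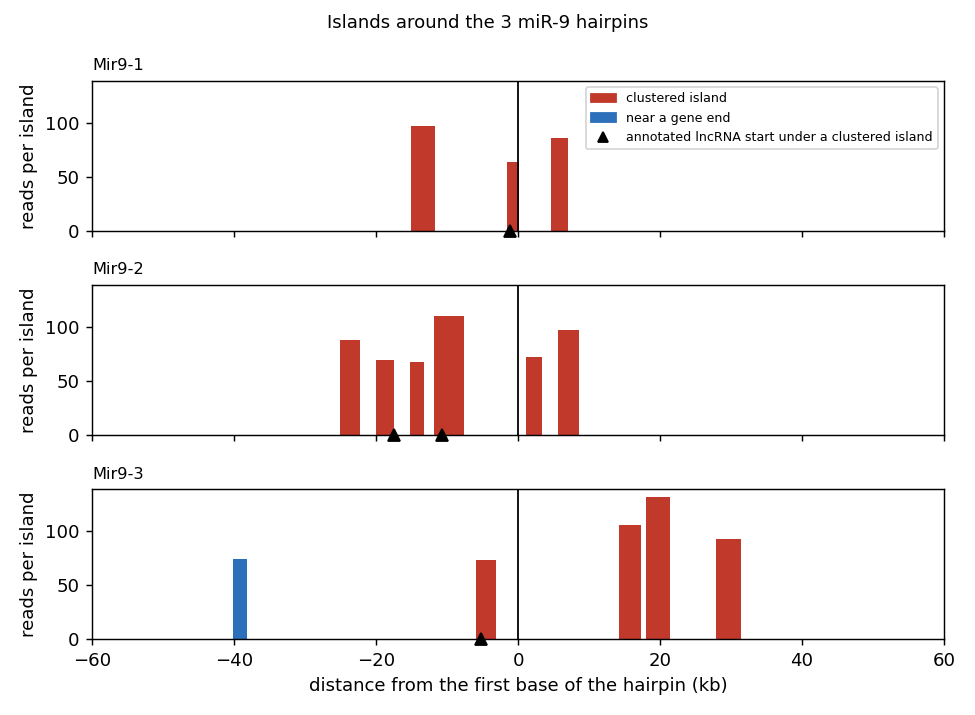
Islands around the 3 miR-9 hairpins: distance from the first base of the hairpin in kb across, reads per island up. Red bars are clustered islands, the blue bar is an island near a gene end, the black line is the hairpin and triangles are annotated starts of lncRNA genes under clustered islands. Red bars stand on both sides of each line because each hairpin lies within the span of a cluster.

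Each miR-9 cluster also covered the annotated start of a long non-coding RNA gene on the strand of the hairpin. These starts are 1.12 kb before Mir9-1 (Gm3764), 17.4 and 10.7 kb before Mir9-2 (C130071C03Rik) and 5.24 kb before Mir9-3 (Mir9-3hg). The windows below run from 250 bases before to 50 after the start (RefSeq, GRCm38.p6). They are shown because an island lies on each of them although none is near a protein-coding gene end. Capitals mark the motifs searched on both strands: GGGCGG (GC box), CAGCTG (an E-box that Atoh1-type bHLH factors can bind), TGGGTGG (core of the GLI site), TTGGCA (core of the nuclear factor I site), CCAAT and TATAAA. Neighbouring matches can overlap, as CAGCTG and TGGGTGG do in C130071C03Rik.
Gm3764, chr3:88214232-88214531, + strand: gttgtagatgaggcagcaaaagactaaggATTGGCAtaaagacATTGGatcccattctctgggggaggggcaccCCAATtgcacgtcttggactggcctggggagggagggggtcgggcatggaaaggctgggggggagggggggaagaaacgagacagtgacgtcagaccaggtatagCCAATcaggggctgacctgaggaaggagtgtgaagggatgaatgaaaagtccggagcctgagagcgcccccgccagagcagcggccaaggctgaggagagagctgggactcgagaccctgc
C130071C03Rik, chr13:83721131-83721430, + strand: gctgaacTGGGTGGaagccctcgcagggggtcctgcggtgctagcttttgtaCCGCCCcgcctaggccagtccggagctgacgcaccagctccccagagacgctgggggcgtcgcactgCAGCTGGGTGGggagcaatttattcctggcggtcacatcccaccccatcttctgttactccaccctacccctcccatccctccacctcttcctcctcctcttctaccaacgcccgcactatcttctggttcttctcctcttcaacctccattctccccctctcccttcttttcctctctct
Mir9-3hg, chr7:79499776-79500075, + strand: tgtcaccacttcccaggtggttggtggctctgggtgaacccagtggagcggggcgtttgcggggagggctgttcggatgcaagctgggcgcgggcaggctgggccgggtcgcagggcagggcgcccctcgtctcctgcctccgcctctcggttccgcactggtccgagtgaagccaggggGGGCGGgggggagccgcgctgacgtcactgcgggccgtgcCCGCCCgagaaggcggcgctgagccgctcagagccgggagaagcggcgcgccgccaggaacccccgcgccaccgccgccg

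The Mir9-3hg window had a GC content of 75%, with 35 CpG and 2 GC boxes. The first window of C130071C03Rik had 60.7% GC, 12 CpG and 2 GLI core matches. The second window of C130071C03Rik, which is not shown, lies under the island of 110 reads. This second window had 40.3% GC, 4 CpG, 1 CCAAT match and no GC box or GLI core match. The Gm3764 window had 59.7% GC, 9 CpG and 4 CCAAT matches. Over all 32619 annotated start windows the median was 53.0% GC and 7 CpG. A match is a run of letters and not a bound site.

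Windows of annotated starts also overlapped clustered islands elsewhere. Of 301 clustered islands on chromosomes for which start windows were used, 32 (10.6%, exact 95% interval 7.39 to 14.7) overlapped one, against 218 of 2920 other distal islands (7.47%, 6.54 to 8.48), and the intervals overlap. These 32 islands touched 43 windows of 32 genes, 22 of them lncRNA genes and 10 protein-coding genes, at starts other than the outer end of the gene. The 16 protein-coding windows had a median of 61.8% GC and 18 CpG, and the 27 lncRNA windows 55.7% and 9. In the 43 windows the GC box was present in 17 (39.5%, against 35.9% of all windows), CAGCTG in 10 (23.3%, against 16.4%) and the GLI core in 6 (14.0%, against 9.36%). The nuclear factor I core was in 11 (25.6%, against 14.1%), CCAAT in 14 (32.6%, against 37.6%) and TATAAA in 3 (6.98%, against 13.7%). Windows of 1 gene can overlap each other, so they are not independent.

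Internal starts of 3 named host genes illustrate these windows, chosen from the hosts after their values were seen. Map3k1, which encodes a kinase upstream of JNK, has one under its island with the most reads (248). Gse1, whose product is found with CoREST histone demethylase complexes, has 3 under islands of 116 and 98 reads. Nfix, a nuclear factor I gene, has 4 whose windows overlap islands of 102 and 89 reads. One window of each is shown, with the same motifs in capitals.
Map3k1, chr13:111808944-111809243, - strand: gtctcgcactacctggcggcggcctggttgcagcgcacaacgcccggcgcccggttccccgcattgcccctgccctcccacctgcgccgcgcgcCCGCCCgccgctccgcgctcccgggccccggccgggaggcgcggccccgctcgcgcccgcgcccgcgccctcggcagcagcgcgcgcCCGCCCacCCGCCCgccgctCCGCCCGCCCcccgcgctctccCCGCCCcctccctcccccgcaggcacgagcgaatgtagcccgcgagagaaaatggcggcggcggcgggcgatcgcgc
Gse1, chr8:120488616-120488915, + strand: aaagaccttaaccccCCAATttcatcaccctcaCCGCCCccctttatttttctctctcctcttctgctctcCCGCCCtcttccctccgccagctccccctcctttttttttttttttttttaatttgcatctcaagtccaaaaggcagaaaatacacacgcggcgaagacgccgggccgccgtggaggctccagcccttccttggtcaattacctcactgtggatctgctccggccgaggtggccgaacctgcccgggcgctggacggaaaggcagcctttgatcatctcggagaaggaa
Nfix, chr8:84773361-84773660, - strand: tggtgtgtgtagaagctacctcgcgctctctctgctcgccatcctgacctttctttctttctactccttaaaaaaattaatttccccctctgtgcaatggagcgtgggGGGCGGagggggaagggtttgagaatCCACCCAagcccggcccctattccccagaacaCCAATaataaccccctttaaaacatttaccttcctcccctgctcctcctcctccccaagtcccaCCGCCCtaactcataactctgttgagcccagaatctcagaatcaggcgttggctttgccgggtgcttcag

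The Map3k1 window was 82.7% GC with 55 CpG and 6 GC boxes, the Gse1 window 55.0% with 17 CpG and 2 GC boxes, and the Nfix window 53.0% with 9 CpG, 2 GC boxes and 1 GLI core match. The start of the lncRNA gene Gm15327 lay on the opposite strand within the same Map3k1 island.

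Most clusters lay inside genes. All islands of 51 clusters (60.7%, exact 95% interval 49.5 to 71.2) overlapped the same protein-coding gene, those of 29 (34.5%, 24.5 to 45.7) overlapped none, and 4 were mixed. Among islands, 197 of 315 clustered ones (62.5%, 56.9 to 67.9) overlapped a protein-coding gene, against 1647 of 3052 other distal ones (54.0%, 52.2 to 55.7). A lncRNA gene was overlapped by 79 clustered islands (25.1%, 20.4 to 30.3) and by 557 other distal ones (18.3%, 16.9 to 19.7). The 51 clusters inside genes lay in 45 genes, 34.5 to 802 kb long with a median of 178 kb, against a median of 17.3 kb for all protein-coding genes. A short gene cannot hold such a cluster, because its islands would fall within 5 kb of an end. In 41 clusters with a known strand the centre lay at a median of 50.6% of the gene from its start, from 9.83% in Nfia to 96.1%, so they were spread along their genes.

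Gse1 held more clusters than any other gene, 4 of them with 7, 5, 5 and 3 islands. Their islands numbered 20 of the 22 in the gene, over 353 kb on chromosome 8 (120228501 to 120581383). The first cluster held 120, 38, 189, 43, 140, 110 and 108 reads, and the second 115, 42, 80, 56 and 120. The third held 46, 54, 40, 45 and 116 reads and the fourth 125, 98 and 63. The highest count was 189 and the lowest 38, both in the first cluster. The clusters were parted by 54.8, 21.8 and 30 kb, and no island lay within 5 kb of the outer start of the gene. Internal starts lay under the islands of 116 and 98 reads. With a joining gap of 10 kb, 8 of the 20 islands were clustered.

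Genes of the nuclear factor I family, transcription factors that act in granule neuron maturation, carried or adjoined 5 clusters. Nfia held 2, of 6 islands (112, 127, 74, 67, 108 and 49 reads) and 4 islands (159, 68, 79 and 92 reads). They made up 10 of the 18 islands in its 541 kb on chromosome 4. A further island of 231 reads lay near its start. Nfix held 1 cluster of 4 islands, with 102, 89, 57 and 66 reads, and an island of 87 reads near its start. Beyond the higher-coordinate end of Nfib lay 2 clusters, 77.7 and 154 kb away, before Zdhhc21, a palmitoyltransferase gene. Zdhhc21 lay 175 and 91.04 kb from them, so the second cluster was nearer to Zdhhc21 than to Nfib. The first held 61, 105, 59, 51 and 65 reads and the second 75, 89, 149, 74 and 152. An island of 147 reads lay near an end of Nfib. Clustered islands at the 3 genes held 49 to 159 reads.

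Ptch1, which encodes the receptor that holds Smoothened in check, held 1 cluster of 4 islands with 85, 85, 67 and 65 reads (chromosome 13, 63523893 to 63557492). Their counting intervals overlapped. When islands below the median read count were left out, neither Ptch1 nor Nfix held a cluster. The island of 159 reads near its start is not a member. On the start side of Ptch1, 406 kb beyond the gene, lay a cluster of 6 islands between Ercc6l2, a helicase gene, and Hsd17b3, a steroid dehydrogenase gene. It lay 79.2 kb from Ercc6l2, which had an island of 138 reads near an end, and 38.6 kb from Hsd17b3, which had none. Its islands held 73, 121, 46, 62, 156 and 55 reads. Whether it belongs to Ptch1 was not tested.

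Of the 12 clusters with the most islands (those tied at 5 islands taken by total reads), the one in Map3k1 had the highest share of its span covered. Its 7 islands held 94, 63, 166, 230, 60, 231 and 248 reads, 1092 in all (exact Poisson 95% interval 1028 to 1159), and covered 72.2% of 49.0 kb (chromosome 13, 111762193 to 111811192). The island of 248 reads overlapped the internal start of Map3k1 shown above. It is a member because only outer ends of genes were counted. A second cluster of 93, 302 and 88 reads lay 160 kb beyond the higher-coordinate end of Map3k1, toward Ankrd55. Over all clusters the islands covered a median of 33.7% of the span (interquartile range 25.3 to 43.5).

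The cluster with the most islands lay between genes. It held 10 islands over 93.6 kb on chromosome 15 (85597771 to 85691370), between Wnt7b, a Wnt ligand gene 15.95 kb away, and Ppara, a nuclear receptor gene for fatty acids 43.5 kb away. The islands held 102, 68, 84, 52, 71, 162, 92, 88, 201 and 141 reads, 1061 in all (998 to 1127). The 3 highest counts were in the sixth, ninth and last islands. No island lay within 5 kb of an end of Wnt7b or of Ppara.

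Other clusters with many islands lay in or beside genes of transcription factors. Tcf4, which encodes a bHLH E protein that pairs with proneural factors, held 5 islands of 89, 162, 148, 181 and 58 reads. Zbtb20, a zinc-finger repressor gene, held 5 of 122, 81, 81, 88 and 50 reads. The 3 middle islands of the Tcf4 cluster held the most reads, while in Zbtb20 the first did.

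**Figure D3:**
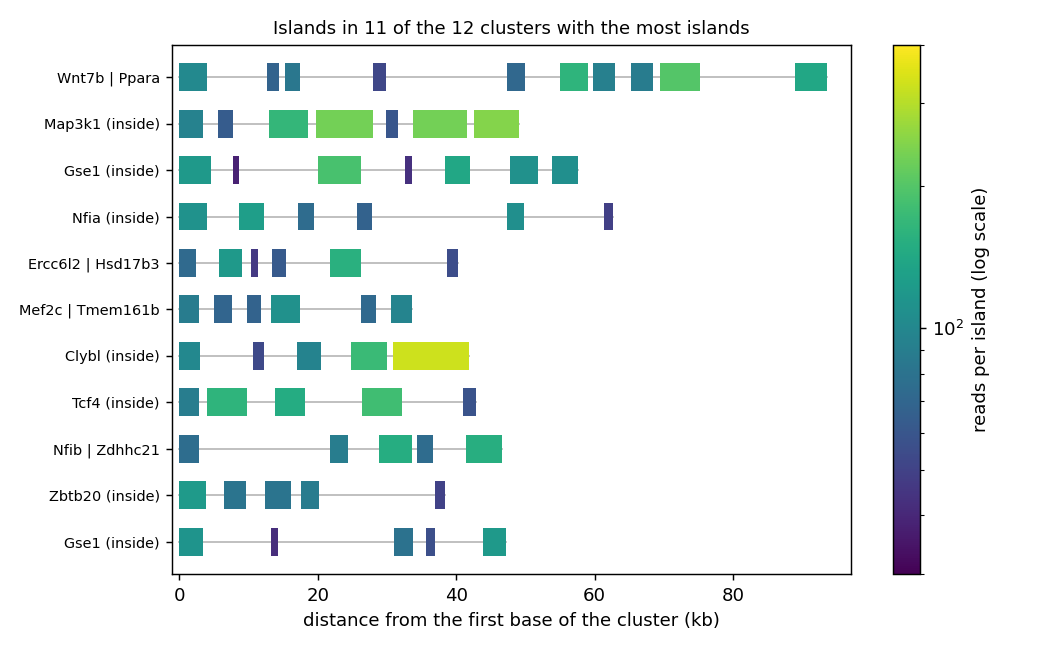
Islands of 11 of the 12 clusters with the most islands (ties by total reads), 1 row each, against distance from the first base of the cluster in kb; colour gives reads per island on a log scale. Labels name the host gene or the genes on each side, and the row of Wnt7b and Ppara is the longest at 93.6 kb.

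Clusters in some hosts lay close to a gene of the neural lineage that was not the host. Clybl, a mitochondrial enzyme gene, held clusters of 3 (59, 165 and 96 reads) and 5 islands (101, 53, 96, 174 and 328 reads). The next genes beyond it were Zic5, 69.4 kb from the second cluster, and Zic2, 85.6 kb from it. Zic genes encode zinc-finger factors of granule progenitors. Ralgapa2, a GTPase-activating protein gene, held 186, 76, 72 and 128 reads in a cluster 29.8 kb from Insm1, a zinc-finger gene of dividing neural progenitors. Lrba, a vesicle trafficking gene, held clusters of 56, 77, 112 and 86 and of 85, 154, 88 and 137 reads, and Mab21l2, nested within Lrba, lay inside the span of the first, with islands of 92 and 77 reads near its own ends. Such islands near gene ends lay inside 5 of the 84 clusters. Zic2 had an island of 143 reads near an end and Insm1 had none. Ralgapa2, Lrba, Zic2, Insm1 and Mab21l2 were named after their positions were seen.

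Between genes, Zic1 and Zic4 were flanked on both sides of the pair. A cluster of 278, 103 and 76 reads lay 216 kb from Zic1, and one of 85, 170 and 83 reads lay 548 kb from Zic4 and 221 kb from Plscr5. Zic1 had an island of 85 reads near an end, and Zic4 had islands of 85 and 79. The genes overlap at their ends, so the counts of 85 can be from the same island. Sox9, a glial and progenitor factor gene, was the nearest gene on one side of a cluster of 57, 72, 85 and 91 reads, 356 kb away, and Slc39a11 lay 42.97 kb away on the other. Chd2, a chromatin remodeller gene, lay 52.8 kb from a cluster of 90, 92 and 149 reads. For the 29 clusters between genes the nearest protein-coding gene beyond the span lay 5.37 to 492 kb away (median 38.6). It lay within 50 kb in 18. Genes inside a span were not counted here. The cluster between Zfand2a and Micall2 had a protein-coding gene end inside its span, 5.42 kb from its island of 112 reads. An island near a gene end, not a member, also lay inside that span.

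Of the 55 genes that flanked these 29 clusters, 26 also had islands near their ends (within 5 kb). So did 15 of the 29 nearest genes beyond the spans. Over all 21631 protein-coding genes the share was 13.1% (2823). A gene inside a span, as between Zfand2a and Micall2, is not counted among the flanking or nearest genes. Chd2 had islands of 52 and 116 reads near its ends. Of the 45 genes that held a whole cluster, 17 had an island near an end. Of the 35 hosts whose strand was known, 9 had one near the start and 5 near the other end. The start here is the outer end of the gene, so islands on internal starts, as in Map3k1 and Gse1, are not counted. Whether these shares differ from that of all genes was not tested.

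Few genes of the lists of neural and tumour genes held a clustered island. Over all protein-coding genes 52 did (0.24%), and 32 of 2427 genes of 100 kb or more (1.32%). Among granule neuron progenitor genes 3 of 36 did, Nfia, Nfix and Ptch1 (8.33%, exact 95% interval 1.75 to 22.5). Nfib, Zic1 and Zic4 of that list flanked a cluster. The nuclear factor I genes, described above as acting in granule neuron maturation, were placed in this list and not among the differentiation genes. Its share depends on that choice. The count of 3 was 6 with a joining gap of 50 kb, 5 with islands over 2 kb from gene ends and 1 with islands of median read count or more. Among other neural transcription factors 3 of 62 did (4.84%, 1.01 to 13.5): Tcf4, Pbx3, a homeobox gene with islands of 70, 100 and 201 reads, and Zeb2, a zinc-finger gene with 103, 82 and 54. BAF and chromatin genes gave 2 of 59 (3.39%, 0.413 to 11.7), Gse1 and Chd9, a remodeller gene with 50, 77 and 83 reads. Of these 8 entries, 6 are in genes of 100 kb or more: Nfia, Tcf4, Pbx3, Zeb2, Gse1 and Chd9. The median gene length was 11 kb in the progenitor list, 75.8 kb in the neural factors and 65 kb in the chromatin list. The lists were chosen with results of these data known, so the shares are a description. For chains of 4 or more, the neural factors and the chromatin list had 1 member each, and with islands of median read count or more the chromatin list had 1.

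Single members were found in 3 other lists. Ptch1 was the one Hedgehog pathway gene of 35 (2.86%, 0.0723 to 14.9). Ntn1, the axon guidance gene of netrin-1, was the one of 44 (2.27%), with islands of 66, 47 and 98 reads. Cacna2d1, a calcium channel subunit gene, was the one of 45 channel and receptor genes (2.22%), with 133, 58, 129 and 110 reads. A single gene is too few to set against the background. Each of the 3 counts was 0 under at least 1 other setting, the Hedgehog count was 2 with islands over 2 kb from gene ends, and the axon guidance count was 3 with a gap of 50 kb.

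No member of the other 9 lists held a clustered island under the rule as stated. There was none among 40 granule neuron differentiation genes, where 3 would be 7.5%, although Mef2c and Mef2d flanked the clusters at Mir9-2 and Mir9-1. There was none among 46 synaptic and neural adhesion genes (3 would be 6.52%), of which 35 are 100 kb or longer. The 38 Wnt and Notch genes (7.89%) and 41 cell cycle and growth genes (7.32%) had none, although Wnt7b of the first flanked the longest cluster. Markers of other cells a tumour can hold had none either: 0 of 20 for each of the endothelial and mural, microglial, astroglial and oligodendrocyte lists (3 would be 15%), and 0 of 30 liver and muscle genes (10%). Sox9 of the astroglial list flanked a cluster. With islands over 2 kb from gene ends the differentiation, Wnt and Notch, and cell cycle lists had 1 member each, and with a gap of 50 kb the adhesion, cell cycle and oligodendrocyte lists had 1 each.

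**Figure D4:**
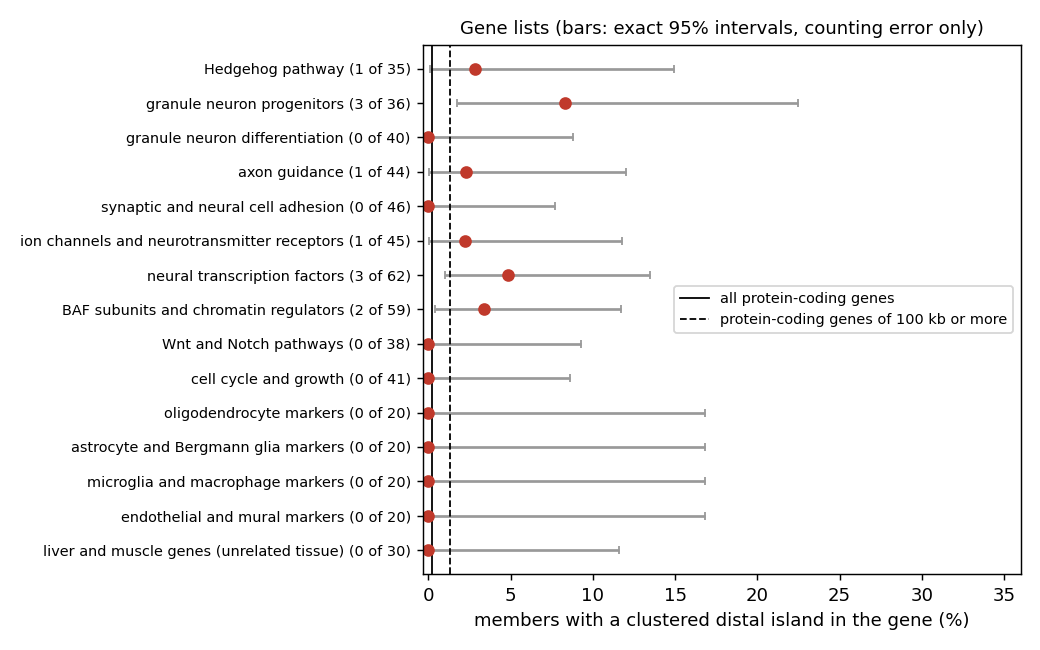
Share of each gene list with a clustered distal island in the gene, in percent, with exact 95% intervals for counting error; lines mark all protein-coding genes (0.24%) and those of 100 kb or more (1.32%). Granule neuron progenitor genes are at 8.33% and 9 of the 15 lists are at 0.

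Clustered islands were wider and held more reads than other distal islands, at about the same density. The median was 82 reads (interquartile range 64 to 104) in 315 clustered islands, against 66 (55 to 82) in 3052 other distal ones. Chains of 2 lay between, at 69, and the 2360 islands near gene ends had 70. Median widths were 2600 bp in clustered and 2200 bp in other distal islands. Reads per 200 bp had a median of 6.42 (interquartile range 5.67 to 7.23) in clustered and 6.36 (5.64 to 7.29) in other distal islands. Within the clusters the median was 79 reads in those of 3 islands, 83 in those of 4 and 85 in those of 5 or more. The chaining used gaps between islands, which depend on island width, so width and reads are not independent of how members were chosen.

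**Figure D5:**
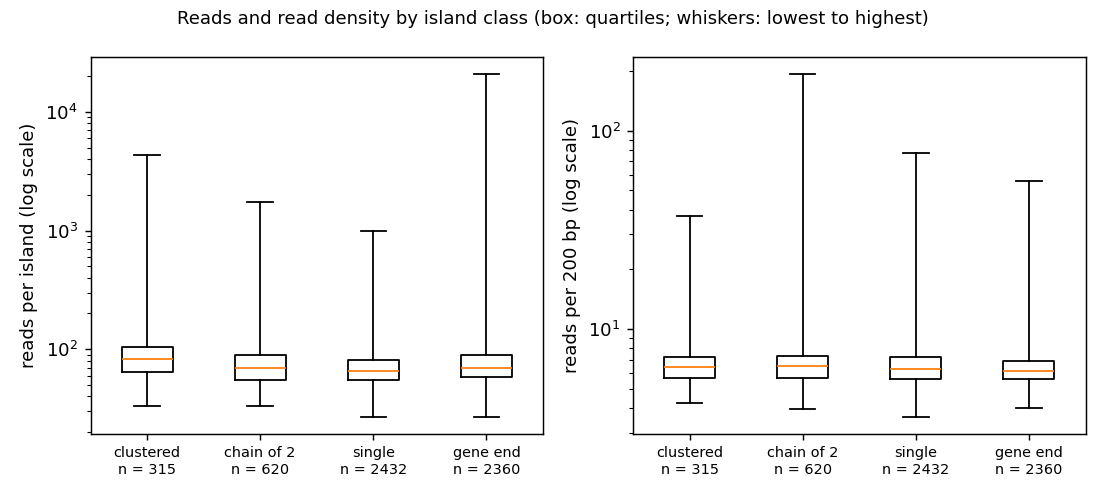
Reads per island (left) and reads per 200 bp (right), both on log scales, for clustered islands, chains of 2, single distal islands and islands within 5 kb of a gene end. Boxes are quartiles and whiskers run from the lowest to the highest value; the clustered box has the highest median of reads (82), while the density medians lie between 6.17 and 6.48.

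Within clusters, the island with the most reads held a median of 39.1% of a cluster's reads (interquartile range 30.9 to 43.8, range 18.9 to 84.5). Clusters held a median of 306 reads (238 to 398) over a median span of 29.3 kb. Gaps had a median of 6400 bp (2200 to 11400), and the smallest was 800 bp. In the Pbx3 cluster the gaps were 800 and 1000 bp, and the islands covered 87.5% of the span. Whether islands so close are separate elements was not tested.

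One cluster stood apart by density. At the start of the sequence of chromosome 9 (3000001 to 3038400), 3 islands of 1411, 419 and 4300 reads covered 95.8% of the span, at a median of 35.5 reads per 200 bp. It lay 297 kb from Alkbh8, with no gene before it, and was the only cluster with islands above 11.6 reads per 200 bp, the upper quartile plus 3 interquartile ranges. Its 6130 reads are part of the 35018 in all clusters, which make up 7.42% of the 472238 in the list, or 6.69% without such islands anywhere. The next by median density was the cluster in 4930467E23Rik on chromosome 8, at 9.2 reads per 200 bp, where the middle of 3 islands held 762 of 902 reads. A cluster between Spag9 and Tob1 and one in Zbtb16, a zinc-finger gene, followed at 8.83 each. Whether the reads of the chromosome 9 cluster reflect Brg1/Brm was not tested, since no input was analysed. Without it the clusters held 28888 reads.

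The other hosts held 1 cluster each. Ppp2r2c, a phosphatase subunit gene, held 5 islands of 75, 72, 87, 91 and 72 reads. Sdccag8, a centrosome gene, held 214, 100 and 60 reads in its cluster. The genes with 1 cluster held from 139 reads in Zbtb16 to 1092 in Map3k1 and were 34.5 kb (Cd9) to 802 kb long (Camta1). Ppp2r2c and Sdccag8 were named after their values were seen.

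Clusters were spread over 18 chromosomes. Chromosomes 4 (10 clusters), 2 and 8 (9 each) and 9 (8) held the most. The share of distal islands that lay in clusters ran to 19.9% on chromosome 8, where 20 of the 37 clustered islands were those of Gse1. It was 1.83% on chromosome 10, and no cluster lay on chromosome 19, with 74 distal islands, or on X, with 11. Clusters also had clusters as neighbours: 23 of the 84 lay within 500 kb of another, in 13 pairs. These included the pairs at Nfia, Nfib, Lrba, Clybl, Map3k1 and Ptch1 and the run of 4 in Gse1.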

How the data were processed

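The authors called islands from the ChIP reads and deposited, per island, a position and a whole number that is taken here, from its values, as the count of reads. It has no header and was used only to describe islands within the list. Bowtie 0.12.7 is named in the submitters' processing notes, as are SICER 1.1, Picard 1.127 and both mm10 and mm9, with no roles. Neither the caller's settings nor the use of the input is stated there. The depth of the library is unknown, so reads are not scaled.

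Starts and ends were raised by 1 to count from 1, with the last base included. Gene extents came from RefSeq GRCm38.p6 (mm10), and strand from its table of start windows, which was used for 80 of the 84 clusters. Density is reads per 200 bp. Shares carry exact Clopper-Pearson and reads exact Poisson 95% intervals. The results were also computed with other gaps, end distances, chain lengths, count and width minimums, gene sets and midpoints; chaining all islands was added after seeing the data. Chaining was tested on simulated islands. Python 3.11.15, pandas 2.3.3 and scipy 1.17.1 were used. Genes were named for the 12 clusters with the most islands (ties broken by total reads), the 3 with the most reads or highest density, and up to 6 members per list. All 531 symbols of the 15 lists matched. Members and lists were chosen with earlier results of these data known. Not every gene so chosen is reported here. Exceptions are named where they occur, and the sequences shown were also chosen with positions known.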

Additional observations from a re-analysis of the deposited data

How the results depend on the processing

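The number of clusters, 84 as reported, was set by the joining rule. It was 48 with a gap of 10 kb and 168 with 50 kb, 34 for chains of 4 or more, 41 with only islands of median read count or more, 45 away from the ends of all annotated genes, and 172 when all islands were chained, an alternative chosen after seeing the data. The islands in them, 315 as reported, numbered 171, 651, 165, 149, 165 and 627 under the same settings. The share of distal islands in clusters, 9.36% as reported, was 5.08% with 10 kb, 19.3% with 50 kb, 4.90% for chains of 4 or more and 6.40% away from all annotated ends. The share of clusters within 1 gene was 73.3% away from all annotated ends, against 60.7%. Genes with a clustered island numbered 32 with 10 kb and 119 with 50 kb, against 52. Distances of 2 and 10 kb from gene ends, islands of at least 1 kb and the removal of high-density islands left the numbers of clusters and islands within 1.5 times.

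Gse1 held 8 clustered islands with a gap of 10 kb and 5 with islands of median read count or more, against 20, and Map3k1 held 5 to 7 under all settings run. Ptch1 and Nfix held none with islands of median read count or more. The 3 miR-9 loci lay within clusters under 5 of 9 settings. They numbered 1 with a gap of 10 kb, 2 for chains of 4 or more, 2 with islands of median read count or more and 0 away from all annotated ends, where islands near microRNA and lncRNA ends are left out by construction. Of 248 values for single genes, lists and microRNAs whose reported count was above 0, 207 stayed within 1.5 times. Part of the 207 could not move. Members lie over 5 kb from gene ends, so the midpoint setting cannot change a gene count. Removing high-density islands touches only the chromosome 9 cluster among those kept, which holds no gene or microRNA. Lists reported at 0 could only rise. Lrba held 4 clustered islands with 10 kb from gene ends and 0 away from all annotated ends, against 8, Clybl 3 to 5 under 3 settings, against 8, and Nfia 6 away from all annotated ends, against 10. With 1 library no replicate could be left out, and depth limits every read count to its Poisson interval.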
